A study of Mus musculus with 4 samples.

Results

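The Srsf and Hnrnp genes were followed across the cell classes of 4 mouse medulloblastomas. Every gene of the count tables whose symbol was Srsf or Hnrnp followed by its letters or number was taken, pseudogene symbols excluded. This gave 31 of 15002 genes, 11 Srsf and 20 Hnrnp genes. The rule used names and no expression value, and the gene families were picked with earlier results of these data known. All 4 tumours belonged to 1 group and came from untreated mice at postnatal day 16. These mice carried the hGFAP-Cre driver and SmoM2 together with Prkaa1fl/fl and Prkaa2fl/fl alleles, which encode the catalytic subunits of AMP-activated protein kinase. SmoM2 is an activated form of Smoothened, the transducer of Sonic hedgehog signals. The hGFAP-Cre transgene is driven by a human GFAP promoter, which is active in stem and progenitor cells of the brain, so that the deletion is limited to cells in which Cre has acted and their descendants. The study set such tumours against tumours with intact Prkaa1 and Prkaa2, and that comparison was not analysed here. The comparisons below are between cell classes inside the same tumours.

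Pre-mRNA splicing removes introns and joins exons in the spliceosome, a machine built on small nuclear ribonucleoproteins (snRNPs). SR proteins, encoded by the Srsf genes, carry an arginine- and serine-rich domain, bind exonic enhancers and help recruit the spliceosome. Heterogeneous nuclear ribonucleoproteins, encoded by the Hnrnp genes, coat nascent transcripts, often oppose exon inclusion, and also act in export, stability and translation of mRNA. In Sonic hedgehog medulloblastoma, progenitors of cerebellar granule neurons keep dividing, and some of their progeny leave the cycle and differentiate as neurons. Neuronal differentiation is accompanied by a switch from broadly expressed splicing regulators to neuron-enriched ones.

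The tables held 6734 barcodes, with 666213 to 1451644 unique molecular identifiers (UMIs) per tumour, and barcodes with at least 500 UMIs were kept. This left 766, 807, 566 and 1083 cells in tumours 1 to 4, with a median of 749 to 972 UMIs. The tumours fell into pairs that the labels do not describe. Profiles of log2 CPM correlated with r = 0.92 within the pairs (tumours 1 with 2, and 3 with 4) and 0.62 to 0.75 across them. Mitochondrial transcripts made up a median of 10.2% and 11.6% of a cell's UMIs in the first pair and of 2.33% and 1.79% in the second. Each pair was therefore tested apart. No barcode was shared between libraries among the kept cells. Prkaa1 had 16, 4, 3 and 5 UMIs and Prkaa2 had 10, 5, 10 and 14. The sources used here do not say which exons are floxed, and 3′ tags outside the deleted exons do not check a deletion.

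Cells were placed in classes by marker UMIs, counted after thinning each cell to 500 UMIs, and no Srsf or Hnrnp gene was a marker. G2/M cells had at least 6 UMIs of 52 mitotic markers and fewer than 10 of 53 neuronal markers. S-phase cells had at least 5 UMIs of 57 replication markers, at most 2 mitotic and fewer than 10 neuronal ones. Neuronal cells had at least 10 neuronal UMIs, at most 2 mitotic and at most 3 replication UMIs. Non-dividing cells had at most 2 mitotic, 2 replication and 6 neuronal UMIs, so that this class was defined by what it lacked. The G2/M class held 210, 247, 137 and 323 cells, the S-phase class 63, 52, 72 and 130, the non-dividing class 61, 42, 69 and 138, and the neuronal class 205, 159, 151 and 215. These classes are ranges of marker scores, and 127, 213, 102 and 210 cells lay near the G2/M minimum with 3 to 8 mitotic UMIs. A further 12, 27, 5 and 15 cells had both mitotic and neuronal UMIs at the class minimums and stayed unassigned. Graph clusters of the same cells gave a partly different split. Of the G2/M class, 67.2% lay in a G2/M cluster and 23.8% in the S-phase cluster, and of the S-phase class 45.4% lay in the S-phase cluster and 50.2% in non-dividing clusters. Of the non-dividing and neuronal classes, 84.2% and 92.3% lay in clusters of the same name. S-phase cells are called dividing here by their replication markers. UMIs were then summed per tumour and class, and a level is given in CPM, the gene's UMIs scaled to a fixed total of nuclear-encoded UMIs, which is a share of the class's own RNA. Median depth was 815 to 1232 UMIs per G2/M cell and 694 to 789 per neuronal cell.

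In all 4 tumours the Srsf and Hnrnp genes together took a larger share of nuclear UMIs in dividing than in neuronal cells. Their summed share was 1.98%, 1.83%, 1.83% and 2.03% in G2/M cells of tumours 1 to 4. It was 1.89%, 1.75%, 1.66% and 1.97% in S-phase cells and 1.69%, 1.56%, 1.55% and 1.89% in non-dividing cells. In neuronal cells it was 1.36%, 1.43%, 1.21% and 1.45%, below every value of the other 3 classes. By value alone, this sum had the order G2/M, S-phase, non-dividing, neuronal in each tumour. The 20 Hnrnp genes alone, which gave most of the UMIs, kept that order in each tumour. The 11 Srsf genes alone kept it in tumour 1 only. They summed to 4276, 4141, 3398 and 3526 CPM in G2/M, 4084, 4106, 3687 and 4078 CPM in S-phase, 4059.6, 3226, 2700.2 and 3582 CPM in non-dividing and 3063, 3365, 2314 and 2597 CPM in neuronal cells. S-phase cells were thus above G2/M cells in tumours 3 and 4, and non-dividing cells were below neuronal cells in tumour 2 and above G2/M cells in tumour 4. The step of the 31-gene sum from G2/M to S-phase went down in each of the 4 tumours, while the ranges of the 2 classes over the tumours overlapped. Intervals for counting error set G2/M apart from S-phase cells in tumour 3 only, and for the Hnrnp sum in tumours 3 and 4. For both sums, those of S-phase and non-dividing cells overlapped in each tumour, and those of non-dividing and neuronal cells in tumour 2. Both dividing classes lay clear of neuronal cells in each tumour. The steps of these sums were not tested.

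Of the 31 genes, 29 passed the filter on low counts and were tested with edgeR's quasi-likelihood test, adjusted over 4108 genes. Hnrnpll and Srsf12 did not pass. Srsf12 had 0, 0, 0 and 1 UMIs in G2/M cells. In G2/M against neuronal cells, 10 of 29 genes rose in tumours 1 and 2, where 22.8% of all tested genes were called in either direction and 13% were called higher. The second pair had 13 of 29 higher, against 33.1% called in either direction and 17% called higher. None fell in either pair. Tumours 1 and 2 had fewer calls with DESeq2, without the replicate block and with each pair fitted alone. Stricter UMI and mitochondrial limits also gave fewer there, as listed at the end. The median log2 fold change of the 29 genes was 0.54 and 0.49 in the 2 pairs, against 0.083 and 0.0091 over all tested genes. The count in tumours 1 and 2 was 3 without tumour 1 and 5 without tumour 3, and that in tumours 3 and 4 was 8 without tumour 3. Leaving out each of the 4 tumours in turn, 2 of the 10 calls held each time (Hnrnpd and Hnrnpu) and 6 of the 13 (Hnrnpab, Hnrnpd, Hnrnpdl, Hnrnpm, Hnrnpu and Srsf7).

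The genes called in both pairs were Hnrnpa2b1, Hnrnpab, Hnrnpd, Hnrnpm, Hnrnpu, Srsf3, Srsf7 and Srsf10. These 8 were 80% of the calls in tumours 1 and 2 and 61.5% of those in tumours 3 and 4. Over all tested genes, the 363 called higher in both pairs were 68.2% and 51.9% of the higher calls, and 8.84% of tested genes, beside 27.6% of the 29. The pairs share no sample, but they were fitted in 1 model with 1 estimate of the spread, so their calls are not fully independent. By level, 22 of the 31 genes were higher in G2/M than in neuronal cells in 4 of 4 tumours (share over all genes not computed). For 9 of them, all among the 29 tested, every G2/M level lay above every neuronal level, which held for 10.5% of all tested genes.

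**Figure D1:**
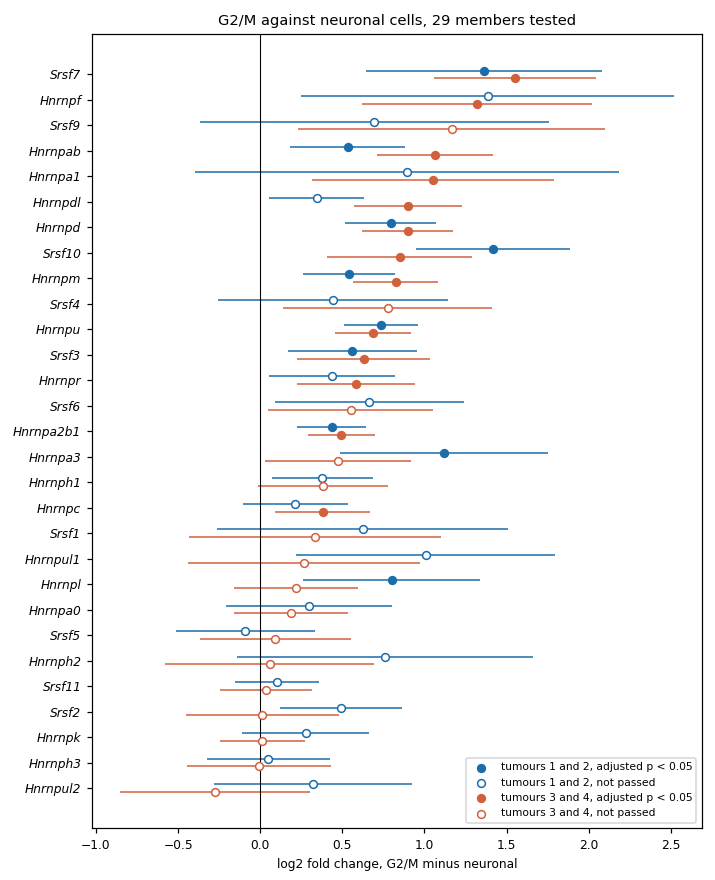
Log2 fold change of G2/M over neuronal cells (x axis) for the 29 tested genes (y axis), in tumours 1 and 2 (blue) and tumours 3 and 4 (orange). Bars are 95% intervals (normal, from the standard error) and filled points passed an adjusted p of 0.05. All filled points lie to the right of 0, with Srsf7 at 1.36 and 1.55.

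Srsf10, Hnrnpd and Hnrnpu were called over neuronal cells in both the G2/M and the S-phase class and in both pairs. Their S-phase calls in tumours 1 and 2 were all lost without tumour 1, with log2 fold changes of 0.54, 0.38 and 0.14 (adjusted p = 0.595, 0.539 and 0.777). Of 16 alternative settings, 3, 8 and 3 lost these calls. Srsf10 is an SR protein that in its dephosphorylated state acts as a splicing repressor. Its level was 543, 545, 460.3 and 437 CPM in G2/M cells of tumours 1 to 4 and 607, 516, 759.5 and 558 CPM in S-phase cells. In neuronal cells it was 133, 303, 250.1 and 242 CPM. All 8 levels in dividing cells lay above all 4 neuronal levels. The log2 fold change of G2/M over neuronal cells was 1.42 ± 0.24 (SE; adjusted p = 3.24e-06) and 0.85 ± 0.23 (adjusted p = 0.00223). That of S-phase cells was 1.32 ± 0.32 (adjusted p = 0.00228) and 1.29 ± 0.25 (adjusted p = 2.95e-05). In the first pair the S-phase value fell to 0.31 (adjusted p = 0.831) with a limit of 10% mitochondrial UMIs, and that call was also lost with at least 1000 UMIs. Non-dividing cells had 316, 329.9, 201 and 368 CPM, a range that overlapped the neuronal one. The neuronal level in tumour 1 was the lowest of the 4, and without that tumour the G2/M fold change in the first pair was 0.74 (adjusted p = 0.121). In the second pair the G2/M call was lost without tumour 4 (0.93, adjusted p = 0.0655).

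Hnrnpd encodes AUF1, a protein that binds AU-rich elements and regulates mRNA stability. Its level was 1292, 1241, 1164 and 1239 CPM in G2/M cells and 1395, 1131, 939 and 1317 CPM in S-phase cells. Neuronal cells had 749.8, 744, 625 and 653 CPM, with no overlap with either dividing class. The G2/M log2 fold change was 0.79 ± 0.14 (adjusted p = 9.05e-06) and 0.90 ± 0.14 (adjusted p = 5.28e-07). In non-dividing cells the level was 902, 953, 876 and 1044 CPM, between those of the dividing and neuronal classes in each tumour. The S-phase call in tumours 3 and 4 was lost without tumour 4 (0.56, adjusted p = 0.239), and that in tumours 1 and 2 also without tumour 3 (0.57, adjusted p = 0.0552) and with at least 1000 UMIs (0.26, adjusted p = 0.691).

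Hnrnpu encodes a DNA- and RNA-binding protein of the nuclear scaffold, also known as SAF-A. It stood at 3060.2, 2733, 2173 and 2544 CPM in G2/M cells and at 3457, 2533, 1781 and 2559.9 CPM in S-phase cells. Its neuronal levels were 1620.4, 1963, 1179 and 1702 CPM. Tumours differed in level, but within each of the 4 tumours both dividing classes lay above the neuronal class. The G2/M log2 fold change was 0.73 ± 0.12 (adjusted p = 7.29e-07) and 0.69 ± 0.12 (adjusted p = 3.21e-06), a 1.66-fold and 1.61-fold rise. This G2/M call held in both pairs under every one of the 16 alternative settings run, while the S-phase call in tumours 3 and 4 was lost without tumour 4 (0.57, adjusted p = 0.107).

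The promoters of these 3 genes are printed beside that of Hnrnpk, which was called in no comparison. Each run is RefSeq sequence on GRCm38.p6, from 250 bases before to 50 bases after the annotated start, 5′ to 3′ on the gene's strand. Capitals mark matches on either strand to 3 motifs often found at promoters of growth and cycle genes, the CCAAT box (CCAAT), the E-box (CACGTG) and E2F motifs (TTTCCCGC, TTTCGCGC, TTTGCCGC and TTTGGCGC). No printed motif overlaps another in these windows. The windows are chr4:135855821-135856120 (+) for Srsf10, chr5:99978889-99979188 (−) for Hnrnpd, chr1:178337766-178338065 (−) for Hnrnpu and chr13:58402068-58402367 (−) for Hnrnpk.
Srsf10: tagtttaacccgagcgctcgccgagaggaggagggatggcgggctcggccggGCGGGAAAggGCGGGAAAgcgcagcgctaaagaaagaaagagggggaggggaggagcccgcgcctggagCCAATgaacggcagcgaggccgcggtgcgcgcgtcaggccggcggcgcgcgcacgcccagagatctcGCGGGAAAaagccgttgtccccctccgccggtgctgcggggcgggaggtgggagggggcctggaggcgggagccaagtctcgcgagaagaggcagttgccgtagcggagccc
Hnrnpd: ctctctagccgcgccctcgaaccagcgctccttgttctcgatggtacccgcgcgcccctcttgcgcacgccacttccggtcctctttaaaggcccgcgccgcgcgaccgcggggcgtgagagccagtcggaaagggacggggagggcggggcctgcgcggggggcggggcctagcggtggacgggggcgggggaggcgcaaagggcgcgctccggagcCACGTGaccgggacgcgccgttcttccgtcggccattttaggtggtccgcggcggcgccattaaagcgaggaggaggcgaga
Hnrnpu: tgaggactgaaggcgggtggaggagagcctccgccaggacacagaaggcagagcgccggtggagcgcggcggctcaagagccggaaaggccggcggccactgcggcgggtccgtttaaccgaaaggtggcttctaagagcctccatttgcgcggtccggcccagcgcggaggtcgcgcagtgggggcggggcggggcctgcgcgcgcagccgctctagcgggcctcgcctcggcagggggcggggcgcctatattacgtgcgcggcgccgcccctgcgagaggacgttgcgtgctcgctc
Hnrnpk: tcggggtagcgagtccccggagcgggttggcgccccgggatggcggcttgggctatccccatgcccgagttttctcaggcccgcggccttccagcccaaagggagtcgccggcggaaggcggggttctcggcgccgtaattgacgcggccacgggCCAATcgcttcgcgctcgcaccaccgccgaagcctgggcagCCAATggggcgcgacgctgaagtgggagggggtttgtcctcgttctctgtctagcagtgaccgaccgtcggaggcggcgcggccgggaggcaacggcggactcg

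The Srsf10 window held 3 E2F matches and 1 CCAAT box, the Hnrnpd window 1 E-box, and the Hnrnpk window 2 CCAAT boxes. The Hnrnpu window held none of the letters searched. Promoter sequences were found for 29 of the 31 genes. Of these, 16 (55.2%) held a CCAAT box, as did 37.9% of 27025 mouse promoters of the same length. An E-box was present in 4 (13.8%), against 7.24% of all promoters. The 3 with an E2F match (10.3%, against 2.32%) were Srsf1, Srsf10 and Hnrnpul1, of which only Srsf10 was called in any comparison within a pair. These counts use the first window listed for each gene, for these and for all genes alike. Further windows held an E2F match for Hnrnpr and a CCAAT box and an E-box for Hnrnpf, and both genes were called within a pair. A match is a stretch of letters and is not evidence of binding.

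Among the classical SR proteins, Srsf3 and Srsf7 rose in G2/M cells and Srsf1, Srsf2, Srsf4, Srsf5 and Srsf9 were called in no comparison within a pair. In an edgeR fit over all 4 tumours with no pair term, added after seeing the data, Srsf4 (0.63, adjusted p = 0.0366), Srsf6 (0.62, adjusted p = 0.0178) and Srsf9 (0.96, adjusted p = 0.0251) were also called higher in G2/M than in neuronal cells. The same fit did not call Hnrnpc in G2/M cells (adjusted p = 0.0703), Srsf6 in S-phase cells (adjusted p = 0.145) or Hnrnpdl in G2/M against S-phase cells (adjusted p = 0.523), which were called in tumours 3 and 4. Srsf7 is a small SR protein with a zinc knuckle that also takes part in mRNA export. Its G2/M levels were 202, 152, 501 and 428 CPM against neuronal levels of 108, 25.9, 197 and 129 CPM. Within each tumour the G2/M level was the higher, but tumours 1 and 2 in G2/M overlapped tumours 3 and 4 in neuronal cells. It had the largest G2/M rise of the called genes in tumours 3 and 4, with a log2 fold change of 1.55 ± 0.25 (adjusted p = 8.45e-07), and 1.36 ± 0.37 in tumours 1 and 2 (adjusted p = 0.00344). In tumours 1 and 2 it rests on few neuronal UMIs, 17 and 3. Without tumour 2 the fold change was 0.92 (adjusted p = 0.137). S-phase cells of tumours 3 and 4 had 483 and 394 CPM, a log2 fold change of 1.39 ± 0.29 over neuronal cells (adjusted p = 1.25e-04).

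Srsf3, the smallest SR protein and a factor in splicing and mRNA export, stood at 547, 564, 359 and 538 CPM in G2/M and 356, 415, 322 and 288 CPM in neuronal cells. The low G2/M value in tumour 3 fell inside the neuronal range. The log2 fold change was 0.56 ± 0.20 (adjusted p = 0.0341) and 0.63 ± 0.21 (adjusted p = 0.0138), and the call in tumours 1 and 2 was lost in 15 of 16 alternative settings. Without tumour 4 the value in tumours 3 and 4 was 0.21 (adjusted p = 0.769). Srsf6, which binds exonic enhancers, rose in S-phase cells of tumours 3 and 4, from 179 and 206 to 276 and 409 CPM (log2 fold change 0.79 ± 0.29, adjusted p = 0.0322). That call was lost without tumour 3 (0.94, adjusted p = 0.0701) and without tumour 4 (0.60, adjusted p = 0.525). In tumours 1 and 2 its S-phase levels were 101 and 172 CPM beside 95.3 and 225 CPM, and the fold change was -0.31 ± 0.49, not called.

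Srsf11, an SR-related protein with no called difference, had a level of 1283, 1335, 799 and 894 CPM in G2/M cells and 1328, 1159, 715 and 900.0 CPM in neuronal cells. The fold change was 0.10 ± 0.13 and 0.035 ± 0.14. The 95% intervals ran from -0.16 to 0.36 in tumours 1 and 2 and from -0.25 to 0.32 in tumours 3 and 4. Srsf2, which binds enhancers and also acts in release of paused RNA polymerase II, had 803, 579, 284 and 244 CPM in G2/M cells and 470.2, 545, 322 and 211 CPM in neuronal cells, and its fold change of 0.49 ± 0.19 in tumours 1 and 2 had an adjusted p of 0.0506.

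Of the Hnrnp A/B genes, Hnrnpa2b1 and Hnrnpab rose in G2/M cells in both pairs, Hnrnpa3 in tumours 1 and 2, and Hnrnpa1 in tumours 3 and 4. Hnrnpa2b1, a regulator of splicing and of RNA transport, had the most UMIs of the family. Its G2/M levels of 3765, 3096, 3507 and 3943 CPM lay above its neuronal levels of 2535, 2655, 2251 and 2973 CPM without overlap. The change was modest, 1.35-fold and 1.41-fold (log2 0.43 ± 0.11 and 0.49 ± 0.10, adjusted p = 0.0012 and 1.20e-04). The call in tumours 1 and 2 was lost without tumour 1 (0.12, adjusted p = 0.665) and without tumour 3 (0.29, adjusted p = 0.113), and that in tumours 3 and 4 without tumour 3 (0.41, adjusted p = 0.0853). S-phase cells, at 2891, 2975, 2941 and 3036 CPM, overlapped the neuronal range.

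Hnrnpab, also called CBF-A and known for binding RNA and single-stranded DNA, went from 400.3, 528, 250.1 and 391 CPM in neuronal cells to 579, 731, 582 and 789 CPM in G2/M cells. The fold change was 1.06 ± 0.18 in tumours 3 and 4 (adjusted p = 2.37e-06), where the call held under all 16 alternatives. In tumours 1 and 2 it was 0.53 ± 0.18 (adjusted p = 0.0232), and 15 of 16 alternatives lost that call. The difference between the pairs had an adjusted p of 0.516. Hnrnpa3, a relative of Hnrnpa1, rose from 108 and 95.1 to 256 and 177 CPM in tumours 1 and 2 (1.12 ± 0.32, adjusted p = 0.00714). Hnrnpa1, a repressor of exon inclusion, rose from 53.6 and 97.7 to 217 and 145 CPM in tumours 3 and 4 (1.05 ± 0.38, adjusted p = 0.0248). Without tumour 3 the Hnrnpa1 value was 0.57 (adjusted p = 0.473), and without tumour 1 that of Hnrnpa3 was 0.78 (adjusted p = 0.413). The Hnrnpa1 call was also lost with DESeq2, without the replicate block and with classes from clusters. That of Hnrnpa3 was also lost with DESeq2, a limit of 10% mitochondrial UMIs and at least 1000 UMIs. Hnrnpa1 had 1 and 6 neuronal UMIs in tumours 1 and 2, too few to place it there.

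**Figure D2:**
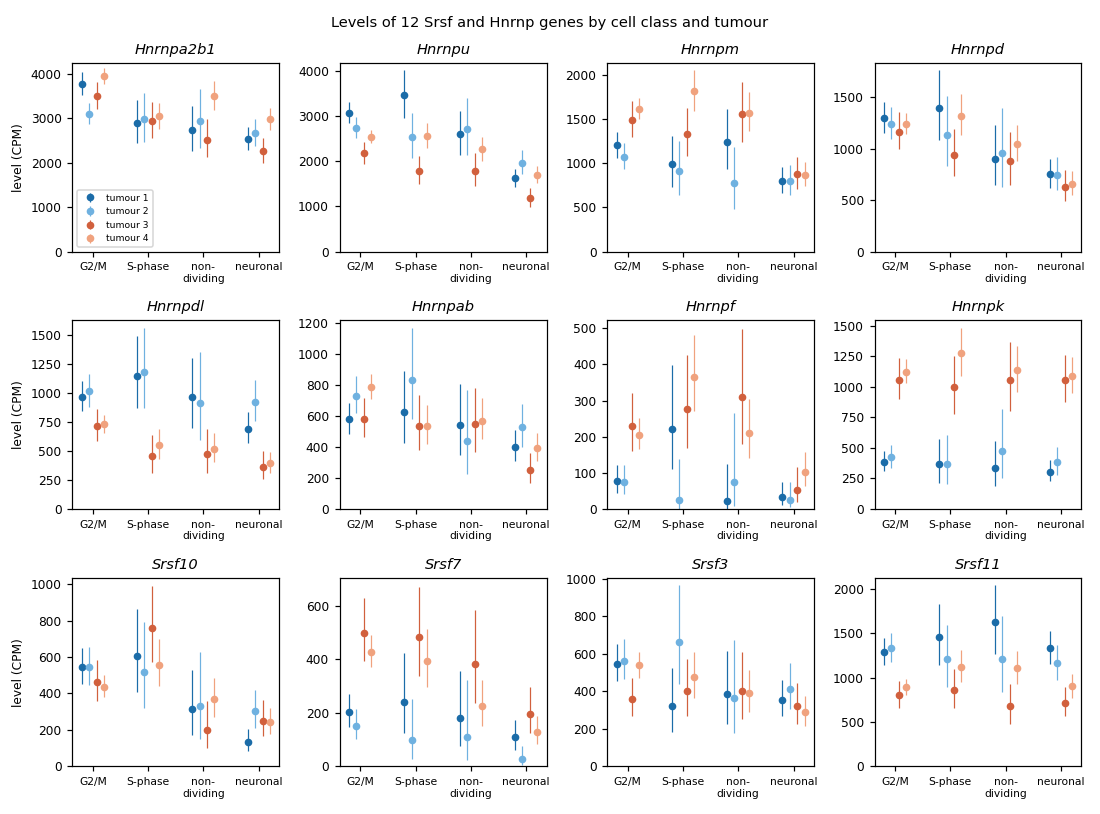
Level in CPM (y axis, from 0) of 12 genes in the 4 cell classes (x axis), with 1 point per tumour and bars for the exact 95% Poisson interval, which covers counting error only. Hnrnpu, Hnrnpd and Srsf10 were lowest in neuronal cells of each tumour except for Srsf10 in non-dividing cells of tumour 3, while Hnrnpk differs mainly between tumours 1 and 2 (blue) and tumours 3 and 4 (orange).

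Hnrnpm, which promotes or represses exons by binding GU-rich sequence, rose in G2/M cells of both pairs. It had 1198, 1069.6, 1489 and 1610.2 CPM in G2/M cells and 801, 796, 876 and 869 CPM in neuronal cells, with no overlap. The log2 fold change was 0.54 ± 0.14 (adjusted p = 0.00303) and 0.83 ± 0.13 (adjusted p = 7.65e-07). The call in tumours 1 and 2 was lost without tumour 1 (0.32, adjusted p = 0.337) and without tumour 3 (0.40, adjusted p = 0.0788). Hnrnpdl, a close relative of Hnrnpd, rose in tumours 3 and 4 from 366 and 396 to 718 and 731 CPM (0.90 ± 0.17, adjusted p = 1.45e-05). Its levels in tumours 1 and 2 were 693 and 925 CPM in neuronal and 969 and 1016 CPM in G2/M cells (0.34 ± 0.15, adjusted p = 0.085). That gap between the pairs was not called (adjusted p = 0.386).

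Hnrnpc, which binds uridine-rich tracts in introns, had 722, 653, 758 and 1021 CPM in G2/M and 655, 554, 500.3 and 833 CPM in neuronal cells, with overlapping ranges. Its rise in tumours 3 and 4 was 0.38 ± 0.15 (adjusted p = 0.0416). Hnrnpr, a cytoplasmic and nuclear RNA-binding protein of neurons and other cells, rose by 0.58 ± 0.18 in the same pair (adjusted p = 0.00968), with 535 and 584 CPM against 331 and 401 CPM. Hnrnpl, a binder of CA repeats, was called in tumours 1 and 2 alone (0.80 ± 0.27, adjusted p = 0.0257), at 260.3 and 269.9 against 153 and 156 CPM. Of 16 alternative settings, 14 lost that call. The Hnrnpc and Hnrnpr calls were lost without tumour 3 (0.30 and 0.55) and without tumour 4 (0.65 and 0.75).

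Hnrnpk, a binder of cytidine-rich RNA and DNA with KH domains, showed no called difference between classes. Its level was 386, 422, 1056 and 1125 CPM in G2/M, 364, 369, 994 and 1273 CPM in S-phase and 305, 381, 1054 and 1090.3 CPM in neuronal cells. The G2/M fold change was 0.28 ± 0.20 in tumours 1 and 2 and 0.012 ± 0.13 in tumours 3 and 4. The 95% interval in tumours 3 and 4 ran from -0.25 to 0.27. The Hnrnp H genes Hnrnph1, Hnrnph2 and Hnrnph3, which bind G-rich tracts, and the Hnrnp U relatives Hnrnpul1 and Hnrnpul2 were likewise called in no comparison within a pair. Hnrnph1 was called higher in G2/M than in neuronal cells in the fit over all 4 tumours (0.38, adjusted p = 0.0419).

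Hnrnpf, the other gene of the F/H group, had some of the largest folds of the family on some of its lowest counts. Neuronal cells had 31.8, 25.9, 53.6 and 103 CPM and S-phase cells 222, 24.6, 276 and 365 CPM. In tumours 3 and 4 the S-phase fold change was 1.89 ± 0.38 (adjusted p = 7.62e-05), from 6 and 20 neuronal and 20 and 49 S-phase UMIs. The G2/M fold change in this pair was 1.32 ± 0.36 (adjusted p = 0.00273). Without tumour 3 the G2/M value was 0.99 (adjusted p = 0.128). In tumours 1 and 2 the S-phase value was 2.01 ± 0.71 (adjusted p = 0.049) from 11 and 1 S-phase and 5 and 3 neuronal UMIs. Without tumour 1 it turned to -0.29, so that this call rested on the 11 UMIs of 1 library.

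S-phase sums held 49462, 40670, 72413 and 134380 nuclear UMIs in tumours 1 to 4, beside 222859, 203808, 147722 and 455231 in G2/M sums. S-phase against neuronal cells gave fewer calls than G2/M in both pairs. That difference was not tested, nor was the part of the smaller sums in it. With classes taken from clusters the order turned in tumours 3 and 4, with 16 calls for S-phase and 11 for G2/M. The first pair had 4 of 29 genes higher (Hnrnpd, Hnrnpf, Hnrnpu and Srsf10), or 13.8%, beside 12.6% of all tested genes in either direction, so the share was near the background. The second pair had 8 of 29 higher (27.6%), against a background of 26.7%. All calls were higher, and higher calls alone made up 5.96% and 13.4% of tested genes in the 2 pairs. Tumours 3 and 4 added Hnrnpab (0.60 ± 0.22), Hnrnpm (0.80 ± 0.15), Srsf6 and Srsf7. The count in tumours 1 and 2 was 0 without tumour 1 and 2 without tumour 3, and in tumours 3 and 4 it was 2 without tumour 4. Of the 8 calls in the second pair, those of Hnrnpf and Srsf10 held without each tumour in turn. The S-phase and G2/M comparisons of a pair share the same neuronal sums and are not independent of each other. Of the 31 genes, 16 were higher in S-phase than neuronal cells in each tumour (share over all genes not computed). For 5 the levels did not overlap, beside 7.89% of tested genes.

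Non-dividing sums were smaller still, with 44339, 27277, 54810 and 133173 nuclear UMIs in tumours 1 to 4. Non-dividing against neuronal cells gave fewer calls again. That difference was not tested, nor was the part of the smaller sums in it. No gene of the family was called in tumours 1 and 2 at the settings given above (2 were with classes from clusters) by edgeR or DESeq2 (1 had an unadjusted p under 0.05), while 5.06% of all tested genes were called, 1.56% of tested genes as higher. The second pair had 6 of 29 higher, against 16.1% of all tested genes in either direction and 7.62% higher. These were Hnrnpf (1.46 ± 0.41), Hnrnpm (0.77 ± 0.15), Hnrnpab (0.66 ± 0.22), Hnrnpc (0.65 ± 0.17), Hnrnpd (0.54 ± 0.17) and Hnrnpu (0.41 ± 0.13). All 6 are Hnrnp genes and no Srsf gene was called within a pair, while the fit over all 4 tumours called Srsf7 (0.80, adjusted p = 0.0415) and did not call Hnrnpab, Hnrnpc and Hnrnpd (adjusted p = 0.179, 0.0861 and 0.0917). Each of the 6 calls was lost without tumour 3 or without tumour 4. The count fell to 2 without tumour 3 and to 2 without tumour 4. By level, 5 of the 31 genes were above neuronal cells in 4 of 4 tumours (share over all genes not computed). For 1 the levels did not overlap, beside 4.45% of tested genes. Hnrnpm in this class had 1240.4, 769.9, 1551 and 1569 CPM, against 801, 796, 876 and 869 CPM in neuronal cells, and all but tumour 2 lay above the neuronal range. Astrocyte or radial glia markers (10 of 11 detected, Aldh1l1 at 0) summed to 2007 and 2236 CPM in non-dividing cells of tumours 1 and 2 and to 328 and 796 CPM in tumours 3 and 4. Neuronal cells had 277 to 743 CPM of the same list. The part of those cells in the non-dividing result was not tested. Granule-lineage progenitor markers stood at 5977 to 7845 CPM in the non-dividing class and 4740.4 to 5837 CPM in the neuronal class.

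The G2/M class had no limit on replication markers, with means of 5.1, 4.97, 3.89 and 4.15 such UMIs per thinned cell. S-phase cells had 7.94, 7.87, 7 and 7.45. The fold change of G2/M over S-phase was positive for 26 of 29 genes in tumours 1 and 2 and 19 in tumours 3 and 4. Over all tested genes 58.5% and 51.85% were positive. With RLE scaling the count in tumours 1 and 2 was 20. Few Srsf and Hnrnp genes were called between G2/M and S-phase cells. None was called in tumours 1 and 2 at the settings given above by edgeR or DESeq2, where 4 had an unadjusted p under 0.05 and 2.34% of all tested genes were called, 2.22% of tested genes as higher. Other settings of edgeR called 3 genes there without the filter on low counts, 2 with classes from clusters and 1 with at least 1000 UMIs. The second pair had 2 of 29 higher in G2/M, beside 4.43% of all genes in either direction and 3.63% higher. Over 4 tumours, 2 of 31 genes were higher in G2/M in each (share over all genes not computed). For 1 the levels did not overlap, beside 3.12% of tested genes. Hnrnpa2b1 had 3507 and 3943 CPM in G2/M and 2941 and 3036 CPM in S-phase cells (0.39 ± 0.11, adjusted p = 0.0171), and Hnrnpdl had 718 and 731 and 456 and 551 CPM (0.56 ± 0.17, adjusted p = 0.0486). Both calls were lost without tumour 3 and without tumour 4, and that of Hnrnpdl also without tumour 1. With classes taken from clusters the Hnrnpdl value turned to -0.053.

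The size of the class differences was then compared between the pairs of tumours with an interaction term. No gene of the family was called in any of the 4 comparisons by edgeR, nor by DESeq2. At an unadjusted p under 0.05 there were 2 genes for G2/M over neuronal, 1 for S-phase, 2 for non-dividing and 3 for G2/M over S-phase. Over all tested genes 0.341%, 0.268%, 0.146% and 0% were called. A gene called in 1 pair and not in the other is therefore not shown to differ between them.

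**Figure D3:**
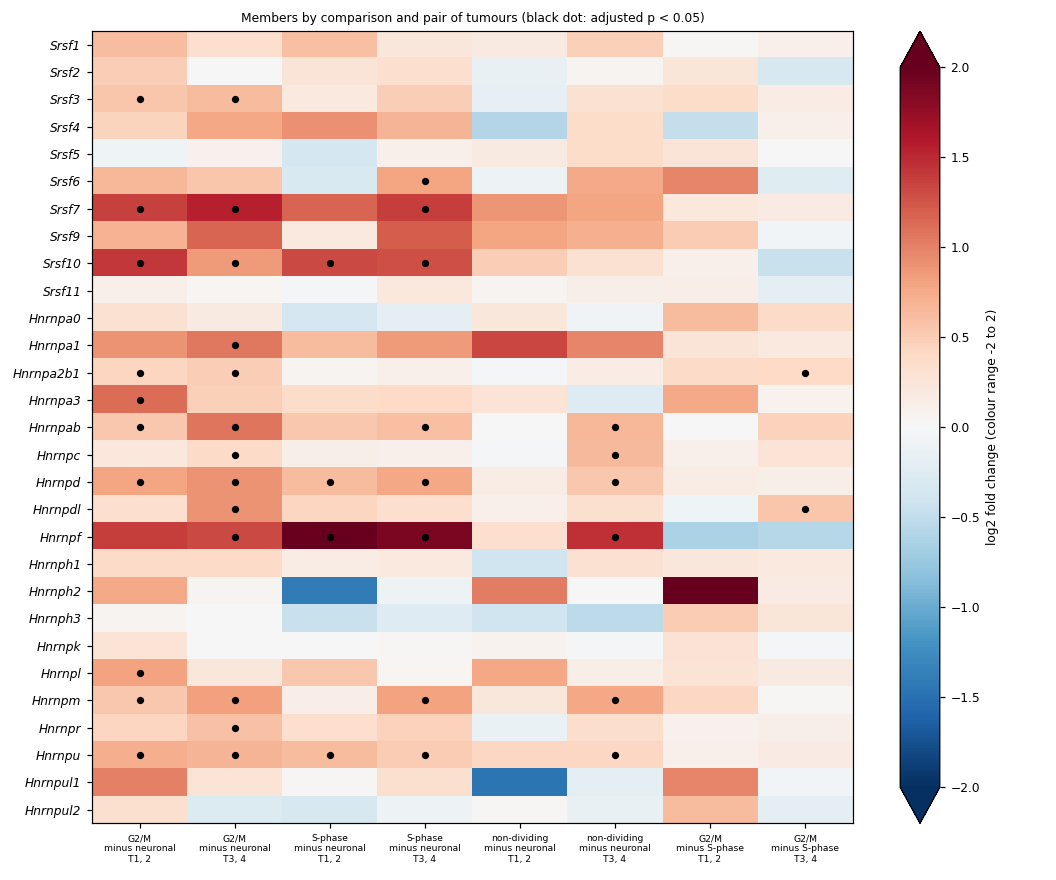
Log2 fold change (colour, red higher and blue lower in the first-named class, colour range -2 to 2) of the 29 tested genes (rows) in 4 comparisons and 2 pairs of tumours (columns; T marks the tumours). Black dots mark an adjusted p under 0.05. Every dot sits on a red cell, and the 13 rows without a dot include Hnrnpk, Srsf11 and the 3 Hnrnp H genes.

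Levels of single genes differed between the pairs at about the share seen over all genes, and they are given as a description. Over all kept cells, 10 of the 29 tested genes (34.5%) were at least 2-fold apart between the means of the pairs with no overlap, beside 35.7% of all tested genes. Hnrnpk stood at 332 and 388 CPM in tumours 1 and 2 and 1066 and 1131 CPM in tumours 3 and 4. Hnrnpa1 went from 23.7 and 52.2 to 167 and 131 CPM, Srsf7 from 149.9 and 91.8 to 392 and 332 CPM and Hnrnpf from 74.2 and 68.1 to 194 and 217 CPM. Hnrnpa0, Hnrnpl, Hnrnpa3 and Hnrnph2 were also higher in tumours 3 and 4, by 2.04 to 2.33-fold. Hnrnph1 and Srsf2 were lower there. Hnrnph1 had 886 and 693 CPM in tumours 1 and 2 against 305 and 411 CPM, and Srsf2 had 595 and 519 against 276 and 267 CPM.

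Other genes were level across the pairs. Srsf10 had 376, 404, 400.2 and 410.0 CPM in tumours 1 to 4, Hnrnpd 1009, 932, 929 and 1082 CPM and Hnrnpa2b1 2927, 2760.1, 2836 and 3436 CPM. For these 3 the ratio of the pair means was between 1.04 and 1.10. The genes that differed most between the pairs thus included Hnrnpk, which was called in no comparison of classes within a pair. The mitochondrial share and whole profiles moved with the pairs as given above, and their part in these levels was not tested.

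**Figure D4:**
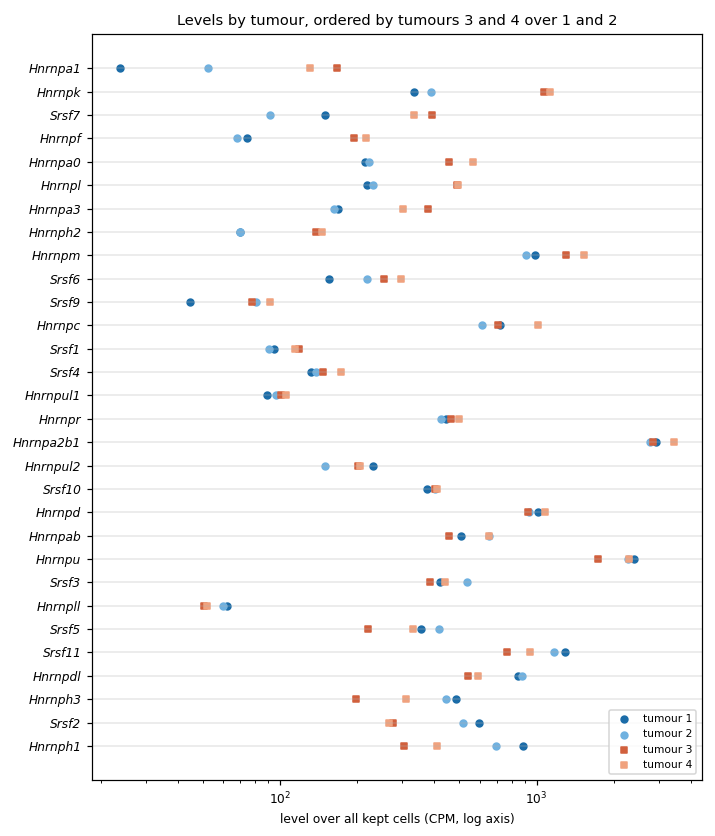
Level over all kept cells in CPM (x axis, log scale) for 30 genes (y axis), ordered by the ratio of tumours 3 and 4 (orange squares) to tumours 1 and 2 (blue circles). Hnrnpa1 and Hnrnpk at the top lie 3.93-fold and 3.05-fold higher in tumours 3 and 4, and Hnrnph1 at the bottom 2.21-fold higher in tumours 1 and 2. Srsf12, with 0 CPM in 3 tumours, is left out.

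Other splicing genes were examined as 4 lists, each in G2/M against neuronal cells. Regulators known for neuronal or non-neuronal forms moved mostly the opposite way from the Srsf and Hnrnp genes. Of 16 tested, 9 fell and 1 rose in tumours 1 and 2, and 10 fell and 0 rose in tumours 3 and 4, with median log2 changes of -1.08 and -1.26. All tested genes had 22.8% and 33.1% called in either direction. In each pair fewer genes of the list fell when either tumour was left out, with the fewest without tumour 1 and without tumour 4. Both counts were 5 with at least 1000 UMIs. Celf5, Celf3 and Celf4 of the CELF family were lower in G2/M cells by log2 values of -2.57, -2.21 and -2.10 in tumours 1 and 2. They changed by -2.78, -2.29 and -2.50 in tumours 3 and 4. Rbfox2, which binds the UGCAUG element, changed by -1.73 in tumours 1 and 2, and Elavl4, a neuronal RNA-stabilising protein, by -2.55 in tumours 3 and 4. Celf4 had 1029, 925, 1081 and 869 CPM in neuronal and 166, 289, 156 and 171 CPM in G2/M cells, far apart in every tumour. In tumours 1 and 2 Mbnl1 (1.24 ± 0.45, adjusted p = 0.0393) was the single rise, and in 11 of 16 alternatives no gene of the list rose in this pair. Rbfox3 was left out of this list because it marked the neuronal class.

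Genes of the core snRNPs and spliceosome had different shares of higher calls in the pairs, a gap that was not tested for the list. Of 57 tested, 22 rose (38.6%, beside 17% of all tested genes) and 2 fell in tumours 3 and 4, with a median of 0.57. The first pair had 4 higher (7.02%, beside 13%) and 0 lower, with a median of 0.38. The 22 ranged from 7 (without tumour 4) to 26 over the alternatives and was 13 without tumour 3, and the 4 ranged from 1 (without tumour 1) to 6. The largest rises in tumours 3 and 4 were those of Lsm5 (2.38), Lsm6 (1.49), Lsm2 (1.49) and Sf3b5 (1.32), subunits of the U6 Lsm ring and of the U2 snRNP. Snrpn, a neuron-enriched Sm protein gene, fell (-1.11), as did the helicase Ddx17 (-0.63). In tumours 1 and 2 the calls were Eftud2 (3.17), U2af1 (1.54), Snrpb (1.17) and Ddx39b (0.89). The Eftud2 value rests on 1 barcode, which held 173 of its 217 UMIs in the classes of tumour 1. No such barcode touched the Srsf and Hnrnp genes, for which the largest share in 1 barcode was 8.33% among genes with at least 20 UMIs in a tumour. The difference between the pairs was not called for any gene of this list.

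Among 25 SR-like and other regulators, 5 rose and 2 fell in tumours 1 and 2, and 4 rose and 5 fell in tumours 3 and 4. The shares that rose, 20% and 16%, stood beside 13% and 17% of all tested genes, and the medians were 0.15 and -0.030. The shares that fell were 8% and 20%, and the share of all genes called lower is not given here. Calls in either direction made up 22.8% and 33.1% of all tested genes, so the falls are not read as particular to this list. Over the alternatives the counts that rose ranged from 0 to 6 and from 1 to 7, and those that fell from 1 to 3 and from 1 to 5. Without tumour 1 none rose in tumours 1 and 2, and without tumour 3 or 4 the count that rose in tumours 3 and 4 was 1. Without tumour 4 the 5 that fell became 1, and without tumour 3 they became 3. Srrm4 and Srrm3, which drive inclusion of neuronal microexons, fell in both pairs, by -1.48 and -0.70 and by -1.46 and -1.68 on the log2 scale. Ybx1, a cold-shock RNA-binding protein, rose in both (0.57 and 1.19), with 525, 677, 1780.4 and 1935 CPM in G2/M and 369, 458, 759 and 854 CPM in neuronal cells. Tra2b (1.08), Tardbp (0.86) and Srrm1 (0.61) rose in tumours 1 and 2, and Taf15 (0.83) and Rbm39 (0.37) were among the rises in tumours 3 and 4. Luc7l3 (-0.47) and Matr3 (-0.33) fell there. Of 6 tested kinases and import factors of SR proteins, none was called in tumours 1 and 2, and Srpk2 (-0.78) and Clk1 (-0.69) fell in tumours 3 and 4, where none fell without tumour 4 and 1 without tumour 3. These 2 falls were 33.3% of the 6 tested, near the 33.1% of all tested genes called in tumours 3 and 4 in either direction. Neuronal markers summed to 7122 to 10858 CPM in G2/M cells against 34969.5 to 38896 CPM in neuronal cells. Whether these UMIs are the cells' own or free RNA was not tested.

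**Figure D5:**
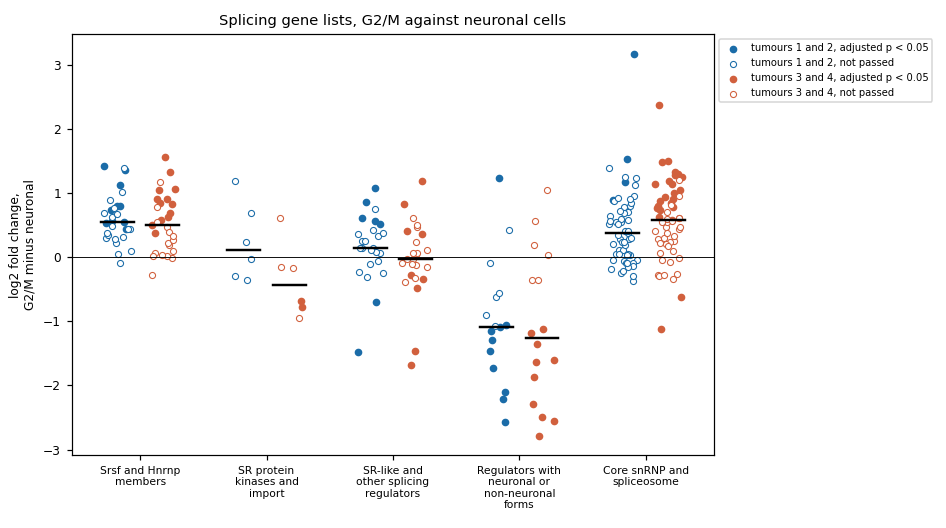
Log2 fold change of G2/M over neuronal cells (y axis) for the Srsf and Hnrnp genes and the 4 lists of other splicing genes (x axis), in tumours 1 and 2 (blue) and tumours 3 and 4 (orange). Each point is a gene, filled where the adjusted p was under 0.05, and black lines are medians. The Srsf and Hnrnp medians lie at 0.54 and 0.49 and those of the regulators with neuronal or non-neuronal forms at -1.08 and -1.26.

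Some symbols may carry UMIs of other loci. In GENCODE M21, exons of 9 of the 31 genes overlap exons of another gene in the tables, 8 of them on the opposite strand, and whether the counting used strand is not given in the sources used here. The largest partner shares were those of Rufy2, with 467 UMIs against 1088 for Hnrnph3 in all kept cells, and of Mettl23, with 248 against 1198 for Srsf2, both on the opposite strand. For Hnrnpu the partner is Cox20, with 619 UMIs against 6750 in all kept cells, and for Hnrnpab it is Phykpl, with 231 against 1795. Hnrnpd overlaps Gm17092 (61 against 3075 UMIs), Hnrnpk overlaps Rmi1 (73 against 2405), and Hnrnpm overlaps March2 on its own strand (79 against 3787). Several family members, Hnrnpa1 among them, have processed pseudogenes in the mouse genome, and how such reads were counted is not given. Differences between levels of different genes were not interpreted, since 3′ counts depend on priming and annotation of each gene.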

How the data were processed

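UMI counts per gene and cell barcode were deposited by the authors as whole-number counts without normalization, in 1 table per tumour. Drop-seq libraries were made after papain dissociation, per the labels' protocols, and STAR and mm10 are named in the submitters' processing notes. The counting rule, the annotation and the barcode filter are not given in the sources used here. A further 6 tables with 11203 cell columns, whose names match no sample's labels, were not used here.

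The genes and gene lists were chosen with earlier results of these data known. Barcodes with at least 500 UMIs were kept, and marker thresholds were set after the marker distributions were seen. Cells with at least 4 UMIs of a non-granule marker list (111) and those in which 1 gene took over 20% of nuclear UMIs (17, left out after the tables were seen) entered no class, and 820 further cells were unassigned. No doublet caller was run. The list of GABAergic interneuron markers had 2 genes in the tables and was not read. Counts were summed into 16 columns (tumour by class) without mitochondrial genes and fitted in 1 edgeR 4.0.16 quasi-likelihood model in R 4.3.3, with TMM scaling, filterByExpr, the tumour as a block and a class effect per pair (6 residual degrees of freedom, common biological variation 8.39%). The sums of a tumour come from 1 animal, which is where the block comes from, and their deviations correlated with a mean r of 0.12 (tumours 1 and 2) and 0.20 (tumours 3 and 4). Standard errors were taken from the fold change and the root of its F statistic. Adjusted p is Benjamini-Hochberg over 4108 genes, called under 0.05. Each tumour is taken as 1 animal, with 2 tumours in a pair, and intervals on levels cover counting error only. Levels are counts over the nuclear total, while fold changes carry TMM scaling. DESeq2 1.42.0, other scalings, filters and class rules were the alternatives, with 1000 UMIs and 10% mitochondrial UMIs as stricter limits.

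Genes named were the 8 with the highest mean level, up to 6 called genes per comparison and pair (others were added where a group or count is described), and up to 4 genes per list and direction. On simulated counts for G2/M against neuronal cells, edgeR recovered 9.09%, 44.8% and 89.4% of changes of 1.5-, 2- and 4-fold in tumours 1 and 2, with 2.06% of calls false over 3687 genes. In tumours 3 and 4 it recovered 14.9%, 50.8% and 98.5%, with 3.57% of calls false over 3706 genes. The simulated counts had the same spread for every gene and a common profile, with no tumour differences beyond the changes made. The changed genes included low-count ones, so these shares are averages and do not describe a given Srsf or Hnrnp gene.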

Additional observations from a re-analysis of the deposited data

Results flagged for a closer look

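The level of Srsf3 in G2/M cells of tumour 3 was 359 CPM, apart from 547, 564 and 538 CPM in tumours 1, 2 and 4. The gap to the nearest tumour divided by the range of the 4 was 0.873, above Dixon's 95% critical value for 4 samples. This was 1 of 72 groups of 4 levels examined, and chance sets about 1 in 20 such groups apart.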

How the results depend on the processing

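Counts of called genes are given in the order G2/M, S-phase and non-dividing against neuronal and G2/M against S-phase, where the reported values were 10, 4, 0 and 0 in tumours 1 and 2 and 13, 8, 6 and 2 in tumours 3 and 4. The difference between the pairs gave 0 calls under each alternative that could give it (each pair fitted alone cannot). Without the replicate block, which ignores that sums of a tumour come from 1 animal, the counts were 5, 1, 0 and 0 and 9, 5, 2 and 0. DESeq2 gave 4, 2, 0 and 0 and 9, 6, 3 and 0. With at least 1000 UMIs they were 3, 1, 0 and 1 and 7, 5, 2 and 0. Classes from clusters gave 8, 5, 2 and 2 and 11, 16, 9 and 1, the last a call lower in G2/M. Fitting each pair alone gave 6 for G2/M in tumours 1 and 2. A mitochondrial limit of 10% gave 5 and 1 for G2/M and S-phase in tumours 1 and 2. It gave 1 for G2/M against S-phase in tumours 3 and 4. In that last comparison RLE scaling gave 1, and upper-quartile scaling, stricter marker minimums and mitochondrial genes kept in the sums each gave 0. Without the filter on low counts S-phase in tumours 1 and 2 gave 1, non-dividing in tumours 3 and 4 gave 3 and G2/M against S-phase in tumours 1 and 2 gave 3. Keeping barcodes led by 1 gene, chosen after seeing the data, gave 5 for G2/M in tumours 1 and 2 and 1 for G2/M against S-phase in tumours 3 and 4.

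Leaving out each tumour in turn gave 3 to 8, 0 to 4, 0 and 0 to 1 in tumours 1 and 2, and 8 to 15, 2 to 8, 2 to 6 and 0 to 2 in tumours 3 and 4, where the lone tumour of a pair is assumed to vary like the others. Of 43 gene calls, 9 held under every alternative, 34 were lost in at least 1, and 2 changed sign. Hnrnpf in S-phase cells of tumours 1 and 2 was -0.29 without replicate 1 and 2.61 without replicate 2, and Hnrnpdl in G2/M against S-phase of tumours 3 and 4 was -0.053 with cluster classes. RLE scaling moved the median of all genes by -0.12 for G2/M against neuronal cells in tumours 1 and 2 and lowered the share of higher calls from 56.8% to 47.2%, with 26 of 29 Srsf and Hnrnp genes still positive. Fitted over 4 tumours with no pair term, added after seeing the data, 18, 7, 4 and 1 genes were called, beside 39.4%, 30.3%, 17.6% and 4.8% of all genes. Few changes of 1.5-fold were recovered in simulation at this depth and number of tumours, as an average over genes of low and high counts. The causes of these changes were not tested.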
